A study of Mus musculus with 4 samples.

Results

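The comparison set macrophages of Cdk5r1 knockout mice against macrophages of wildtype mice after bacterial lipopolysaccharide (LPS). It was read on 2 of the 4 arrays of the study, and its members were chosen by array title alone. The cells were grown from bone marrow of male mice aged 6 weeks in GM-CSF (25 ng/ml), a myeloid growth factor, over 7 days, and then received E. coli LPS at 100 ng/ml for 6 h. The strain is given as B6.129S4-Cdk5r1tm1Lht/J for both genotypes, and the labels tell the genotypes apart as wildtype and CDK5R1 knockout. The labels call the arrays biological replicates and do not name the animals, so the p-values measure the spread between arrays. On each array wildtype RNA carried the dye Cy3 and knockout RNA the dye Cy5. No array had the dyes swapped, and genotype and dye cannot be told apart for any probe. The other 2 arrays made the same comparison in basal cells, without LPS.

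Cdk5r1 encodes p35, a regulatory protein that binds and switches on the kinase CDK5, best known from neurons and also made in myeloid cells. LPS is sensed by Toll-like receptor 4 with its partner CD14. The receptor drives NF-kappaB and MAP kinase signalling and with it the genes of inflammatory cytokines, followed by interleukin 10, which restrains the response. Cultures grown with GM-CSF hold macrophages and cells with dendritic features, and they can keep granulocytes and their precursors.

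Of 39429 probes, 28632 (72.6%) were kept, and the brightest kept probe stood for each of 23567 genes, 15983 of them with a symbol. A gene is called where its moderated limma test gave an adjusted p under 0.05. The value after ± is limma's moderated SE from the fit of all 4 arrays, and n = 2 counts the LPS arrays behind the ratio. Values are log2 ratios of knockout over wildtype unless said otherwise, so that -1 is a level of 2-fold less in the knockout. Across genes the ratios of the LPS arrays correlated at r = 0.775, and the median gap between them was 0.119. Repeated spots of a probe within an array had a median SD of 0.0669 and 0.0656. Of 7 macrophage markers 6 were on the array, and all 6 were well above background in both channels, as were all 5 dendritic cell markers. The erythroid marker Alas2, the mast cell marker Ms4a2 and the T cell marker Cd3g were not well above background in any channel.

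The targeted gene was lower in the knockout channel of both LPS arrays. Cdk5r1 had log2 intensities of 11.36 and 11.93 in wildtype and 8.81 and 9.64 in knockout RNA on LPS arrays 1 and 2. The knockout values lay below both wildtype values, at a ratio of -2.42 ± 0.094 (SE, n = 2, limma adjusted p = 6.7e-05). A second probe gave -2.0 and -2.03. Both probes kept signal above background in knockout RNA, and the sources used here do not say whether either lies in the deleted part. On the basal arrays the difference was smaller, at -0.37 and -0.59 by the brightest probe. The basal level of that probe, a mean of the knockout and wildtype channels, was 9.39 and 9.48. The wildtype channel alone was at 11.36 and 11.93 under LPS. Of 21 measured genes of CDK5, its activators and partners, 4 fell and 0 rose, 19% called beside 12.4% of all genes. The 4 were Cdk5r1, Ccnb1, Ccni (-0.31 ± 0.071, but 0.0205 with median centring) and Cdk5rap3 (-0.33 ± 0.074). The calls of Ccnb1, Cdk5rap3 and Ccni were lost when either LPS array was left out (adjusted p 0.066 to 0.225). Cdk5rap3 (-0.17) was not called with median centring (adjusted p = 0.194). Cdk5rap3 and Ccni were not called with the processed signals (adjusted p 0.097 to 0.128). The kinase gene Cdk5 was at 0.06 and 0.05 and was not called (adjusted p = 0.649).

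In all, 2922 genes (12.4%) were called: 1690 (7.17%) were higher and 1232 (5.23%) lower in the knockout, each with the same sign on both LPS arrays. Most of the called differences were small, with a median size of 0.472, and 1911 of them were under 1.5-fold. With each array centred on its median in place of loess, 4632 genes were called higher and 859 lower, so 84.4% of calls were rises against 57.8% with loess, and the median of all genes was 0.0722 in place of -0.000751. Without LPS array 1 the calls numbered 528 and without LPS array 2 they numbered 413. The adjusted p rests on limma's model of how the spread varies between genes, and simulated data that departed from this model held more false calls than the threshold states. Of 238 called genes in the set of 252 that the naming rule picked, 46 kept their call under every alternative that still measured them. Genes that a filter dropped did not count as losing their call. Dsc3 and Spo11, for example, were dropped where both channels had to be above background on both LPS arrays. Among these 46 were Cdk5r1, Il10, Slfn8, Csta2, Adora2b, Ltf, Camp, S100a8, S100a9, Rrm2, Cxcl3, Pigx and Acp6.

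**Figure D1:**
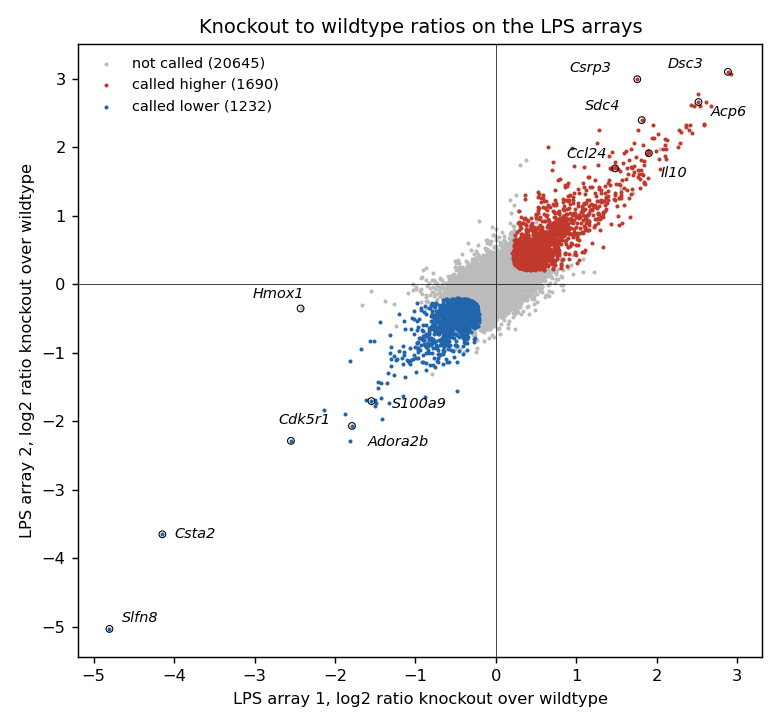
Log2 ratio of knockout over wildtype on LPS array 1 (x axis) against LPS array 2 (y axis), 1 point per gene, with 1690 genes called higher in red, 1232 called lower in blue and the rest in grey. Slfn8 and Csta2 lie farthest down on both axes, while Hmox1, at -2.43 and -0.35, is low on the first array only.

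Large differences were more often rises than falls: 181 genes (0.768%) were at least 2-fold higher on both LPS arrays and 40 (0.17%) at least 2-fold lower, 0.938% together. Of the 181, 88 were not well above background in the wildtype channel of either LPS array, and 87 passed that mark in all channels. Of the 40, 39 passed it in all channels. The share of rises was highest between log2 intensities of 7 and 8, where 82 of 3528 genes rose (2.32%). Below 7 it was 50 of 7418 (0.674%), under that of all genes. The intensity is the mean of both channels, so a rise in knockout RNA can itself move a gene to a higher bin. Of the 181 rises, 80 were also at least 2-fold higher on both basal arrays, as were 10 of the 40 falls in their direction. The part of signal level in these rises was not tested.

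**Figure D2:**
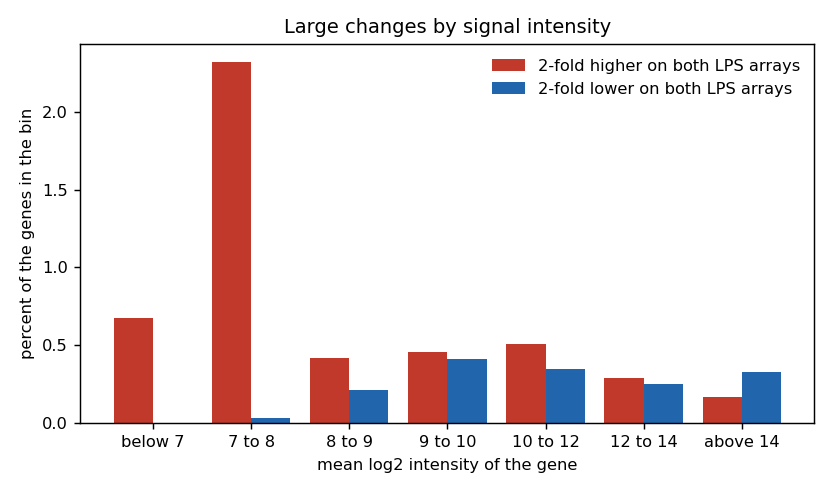
Percent of genes at least 2-fold higher (red) or lower (blue) on both LPS arrays, by the gene's log2 intensity (x axis), a mean of both channels. The share of rises was 0.674% below 7, 2.32% between 7 and 8 and 0.164% above 14, while the share of falls was 0% below 7 and 0.328% above 14.

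Il10, the gene of the anti-inflammatory cytokine interleukin 10, rose the most among the mediators that limit inflammation. Its log2 intensities were 7.84 and 8.81 in wildtype and 9.74 and 10.72 in knockout RNA. On each array knockout RNA was higher by nearly the same amount, 1.90 and 1.91, although the level itself differed between the arrays, and the mean was 1.91 ± 0.066 (SE, n = 2, limma adjusted p = 4.9e-05). Its basal ratios were -0.0011 and 0.03. Of 19 anti-inflammatory mediators 5 rose and 0 fell, beside 7.17% and 5.23% of all genes, with a median of 0.0503 beside -0.000751 for all genes. The median was -0.0419 with the processed signals and -0.0149 with the authors' value table. The others that rose were Dusp1, a phosphatase that switches off MAP kinases (0.95 ± 0.18), Nfil3, a transcription factor (0.56 ± 0.1), Zfp36, which speeds the decay of cytokine mRNA (0.42 ± 0.089), and Il18bp, which traps interleukin 18 (0.37 ± 0.083). Dusp1 was uneven, at 0.59 and 1.31 on the arrays. Nfil3, Zfp36 and Il18bp were no longer called without LPS array 1 (adjusted p 0.147 to 0.272). Dusp1, Nfil3, Zfp36 and Il18bp were no longer called without LPS array 2 (adjusted p 0.0833 to 0.171). Dusp1, Nfil3, Zfp36 and Il18bp were not called with the processed signals (adjusted p 0.0777 to 0.114).

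Genes of inflammatory cytokines were more often lower. Of 19 measured, 8 fell and 3 rose, 57.9% called beside 12.4% of all genes. The list median was -0.19, and 0.0385 with median centring. Il1b, the gene of interleukin 1 beta and 1 of the brightest on the array, was at 17.34 and 17.45 in wildtype and 16.56 and 16.72 in knockout RNA. It was lower in the knockout on each array, and the ratio was -0.75 ± 0.072 (SE, n = 2, limma adjusted p = 0.00197). Under median centring it was -0.11 and not called (adjusted p = 0.444). Il1a fell by 0.87 and the lymphotoxin genes Lta and Ltb by 0.92 and 0.78. The interleukin 12 family subunits Il12a and Il23a were at -0.47 and -0.62 and at -0.50 and -0.51 on the arrays. The 3 that rose were Il33 (0.48), Il15 (0.37) and Ebi3 (0.32), which were named after their values were seen. Tnf was at -0.49 and -0.42 and Il6 at -0.38 and -0.31, both called with loess, but their ratios turned to 0.04 and 0.27 with median centring. Tnf, Il6, Il12a, Lta and Il23a were no longer called without LPS array 1 (adjusted p 0.0549 to 0.305). Il1a, Tnf, Il6, Il12a, Lta and Il23a were no longer called without LPS array 2 (adjusted p 0.0623 to 0.2). Il1a, Tnf, Il6, Lta and Il23a were not called with the processed signals (adjusted p 0.0608 to 0.268).

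Chemokine genes split. Of 24 measured, 6 fell and 2 rose, 33.3% called beside 12.4% of all genes. The median of the list was on the other side, at 0.0908, and -0.0145 with the processed signals. Cxcl3, which recruits neutrophils, was at 12.69 and 12.47 in wildtype and 11.55 and 11.47 in knockout RNA, a fall of 1.07 on the log2 scale, and Cxcl2, of the same kind, fell less (-0.44 ± 0.1). Ccl9 and the monocyte attractant gene Ccl8 were at -0.66 and -0.84 and at 1.15 and 0.79, so that Ccl8 rose. Ccl24, an eosinophil attractant, was at 8.50 and 9.3 in wildtype and 9.98 and 10.99 in knockout RNA, so that it was higher in the knockout on each array although the levels moved up from the first to the second array in both genotypes. Its ratio was 1.59 ± 0.15 (SE, n = 2, limma adjusted p = 0.00191), and 0.35 and -0.30 on the basal arrays. Of 19 receptors for chemokines and other attractants 3 fell and 0 rose, 15.8% called beside 12.4% of all genes. The 3 were Fpr1, which senses bacterial formyl peptides (-1.11 ± 0.13), the leukotriene receptor Ltb4r1 (-1.1 ± 0.082), and Ccr2 (-0.87 ± 0.17). Ccl8, Ccl9, Cxcl2, Fpr1 and Ccr2 were no longer called without LPS array 1 (adjusted p 0.0689 to 0.359). Ccl24, Ccl8, Ccl9, Cxcl2, Fpr1 and Ccr2 were no longer called without LPS array 2 (adjusted p 0.0608 to 0.282). Ccl9 (-0.17) and Cxcl2 (-0.26) were not called with median centring (adjusted p 0.175 to 0.386). Ccl8, Cxcl2, Fpr1 and Ccr2 were not called with the processed signals (adjusted p 0.0628 to 0.253).

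The LPS sensing genes that were called were lower. Of 21 genes 4 fell and 0 rose, 19% called beside 12.4% of all genes. The 4 were the receptors Tlr4 (-0.36 and -0.80) and Tlr2 (-0.63 and -0.69), the LPS carrier Cd14 (-0.43 and -0.60) and the negative regulator Irak3 (-0.59 and -0.54). The median of the list was -0.0826, and 0.0999 with median centring. Of 23 NF-kappaB genes 21 were not called, and 2 rose, a share near the 7.17% of all genes, Nfkbiz (0.40 ± 0.066) and Tnip3 (0.72 ± 0.083). Of 27 MAP kinase genes 6 rose and 6 fell (44.4% called), while the list had 4 calls without LPS array 1 and 2 without LPS array 2. Among those that fell were Mapk14, which encodes p38 alpha (-0.71 ± 0.066), and Dusp6, a phosphatase of ERK kinases (-0.90 ± 0.076). The other probe of Mapk14 gave -0.31 and was not called. Tlr2, Irak3, Cd14, Tnip3 and Nfkbiz were no longer called without LPS array 1 (adjusted p 0.0697 to 0.116). Tlr2, Tlr4, Irak3, Cd14, Tnip3 and Nfkbiz were no longer called without LPS array 2 (adjusted p 0.055 to 0.163). Tlr2 (-0.32) and Cd14 (-0.07) were not called with median centring (adjusted p 0.0594 to 0.743). Tlr4, Cd14 and Nfkbiz were not called with the processed signals (adjusted p 0.0628 to 0.0804).

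Among enzymes of nitric oxide, itaconate and prostaglandin synthesis 7 of 22 fell and 0 rose, 31.8% called beside 12.4% of all genes. The list median was -0.178, and 0.011 with median centring. Ass1, which supplies arginine for nitric oxide, was at -1.13 and -0.65, and the cyclooxygenase gene Ptgs1 at -0.39 and -0.86. The nitric oxide synthase gene Nos2 was at 0.19 and 0.29 and was not called (adjusted p = 0.0776). Acod1, which makes itaconate, was at -0.53 and -0.39, but at 0.20 with median centring. Of 41 interferon-stimulated genes 2 rose and 3 fell, 12.2% called and near the 12.4% of all genes. Their median was -0.0785, and 0.339 with median centring. Ifi44 was at -0.90 and -0.82 and Oasl1 at 0.35 and 0.32. On the basal arrays 1148 of all genes were called (4.87%), 3.37% higher and 1.5% lower. Of the 41, 23 were called lower there and 0 higher, at a median of -0.438. Ifi44, Oasl1, Ass1 and Acod1 were no longer called without LPS array 1 (adjusted p 0.0519 to 0.197). Oasl1, Ass1, Ptgs1 and Acod1 were no longer called without LPS array 2 (adjusted p 0.0757 to 0.159). Oasl1, Ass1 and Ptgs1 were not called with the processed signals (adjusted p 0.0776 to 0.441).

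**Figure D3:**
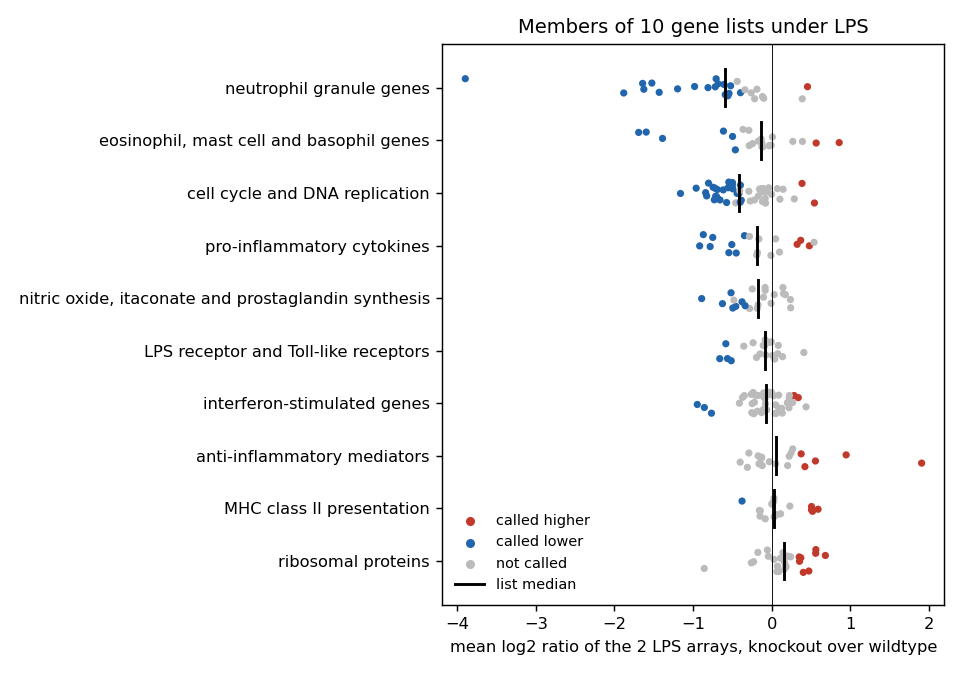
Mean log2 ratio of the 2 LPS arrays (x axis) for each measured member of 10 gene lists (rows), in red where called higher, blue where called lower and grey where not called, with a black bar at the list's median. The medians of the neutrophil granule list, at -0.591, and of the cell cycle list, at -0.413, lie farthest to the left.

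Genes of the neutrophil granule list were lower as a group. The list does not hold granule genes alone: it also counts the stefin gene Csta2 (-3.90) and the calprotectin genes S100a8 and S100a9. Of 27 measured, 18 fell and 1 rose, 70.4% called beside 12.4% of all genes. The list median was -0.591, and -0.387 to -0.855 across the scalings tried. Fewer cells of a type and less RNA per cell cannot be told apart in such samples. S100a9, a subunit of the alarm protein calprotectin, was at 17.45 and 17.50 in wildtype and 15.90 and 15.80 in knockout RNA, and its partner S100a8 at 16.22 and 16.48 in wildtype and 14.71 and 14.71 in knockout RNA. In both the knockout values were below the wildtype values by more than 1 log2 unit on each array, and the ratios were -1.63 ± 0.073 (SE, n = 2, limma adjusted p = 0.00012) and -1.64 ± 0.085 (SE, n = 2, limma adjusted p = 0.0002). Ltf, which encodes lactoferrin, fell by 1.88, Camp, a cathelicidin peptide, by 1.52 (-1.48 by its other probe) and Wfdc21 by 1.43. The call of Wfdc21 was lost when either LPS array was left out (adjusted p 0.0545 to 0.0597). Basal cells had 12 of the 27 called lower and 0 higher, at a median of -0.467, beside 1.5% of all genes lower there. The called count was 9 without LPS array 1 and 6 without LPS array 2. The fixed neutrophil markers overlap this list and are no separate readout: all 5 on the array were well above background in every channel, the granule genes Camp, Ltf and Ngp fell, and the summed log2 level was 13.81 and 14.07 in wildtype against 13 and 13.01 in knockout RNA. The primary granule genes Mpo and Elane, the other 2 markers, which are made earlier in neutrophil development, were at 0.65 and 0.13 and at -0.10 and -0.28, neither called. The part of granulocyte content in these results was not tested.

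Eosinophil granule genes were lower too, and mast cell and basophil genes gave no common direction. Epx, the eosinophil peroxidase, was at 10.74 and 11.30 in wildtype and 9.32 and 9.33 in knockout RNA, and the major basic protein gene Prg2 at 13.22 and 13.86 in wildtype and 11.73 and 12.17 in knockout RNA. The ratios were -1.69 ± 0.18 (SE, n = 2, limma adjusted p = 0.00263) and -1.60 ± 0.16 (SE, n = 2, limma adjusted p = 0.00234), and Prg3 was at -1.39 ± 0.12. The receptor gene Kit and the mast cell carboxypeptidase gene Cpa3 rose, by 0.86 and 0.57. Of the other mast cell and basophil markers, Mcpt8 was at 0.56 and -0.02 and Fcer1a at -0.11 and -0.14, neither called, and Ms4a2 was not kept. In the whole list of 23 measured, 6 fell and 2 rose, 34.8% called beside 12.4% of all genes. The 4 eosinophil markers had summed log2 levels of 13.78 and 14.24 in wildtype and 12.69 and 12.7 in knockout RNA, while Siglecf and Ccr3 among them were not called. Prg2, Kit and Cpa3 were no longer called without LPS array 1 (adjusted p 0.0527 to 0.259). Epx, Prg2, Kit and Cpa3 were no longer called without LPS array 2 (adjusted p 0.0642 to 0.319). Epx, Kit and Cpa3 were not called with the processed signals (adjusted p 0.0505 to 0.129).

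Genes of cell division and DNA synthesis were lower in the knockout after LPS. Of 48 measured, 26 fell and 2 rose, 58.3% called beside 12.4% of all genes. The list median was -0.413, and -0.33 to -0.663 across the scalings. On the basal arrays 1 fell and 0 rose, and the basal median was -0.102, while the ratio differed between conditions, by its own test, for 0 of the 48. Rrm2, a subunit of the enzyme that makes deoxynucleotides, was at 10.48 and 9.88 in wildtype and 9.16 and 8.87 in knockout RNA, a ratio of -1.16 ± 0.11 (SE, n = 2, limma adjusted p = 0.00175). Ccnb1, the mitotic cyclin B1, was at 9.08 and 8.63 in wildtype and 8.07 and 7.72 in knockout RNA, a ratio of -0.96 ± 0.11 (SE, n = 2, limma adjusted p = 0.00313), and its other probes gave -0.30 and -0.17. Both genes were lower in the knockout on each array, and wildtype levels were lower on the second array than on the first. Plk1, a mitotic kinase, was at -0.80 ± 0.11, Birc5, which encodes survivin, at -0.84 ± 0.14, Ccnb2 at -0.75 ± 0.11 and the G1 cyclin gene Ccnd3 at -0.83 ± 0.067. Among 22 cyclin-dependent kinase inhibitors and p53 targets 2 rose and 2 fell, 18.2% called beside 12.4% of all genes. The inhibitors Cdkn1c and Cdkn2b rose, at 1.09 and 1.09 and at 0.92 and 1.17 on the arrays, and the p53 targets Gadd45a and Ccng1 fell, by 0.52 and 0.44. Ccnb1, Birc5, Plk1, Ccnb2, Gadd45a and Ccng1 were no longer called without LPS array 1 (adjusted p 0.055 to 0.101). Ccnb1, Birc5, Plk1, Ccnb2, Cdkn2b, Gadd45a and Ccng1 were no longer called without LPS array 2 (adjusted p 0.0517 to 0.148). Birc5, Ccnb2 and Ccng1 were not called with the processed signals (adjusted p 0.0539 to 0.0664). The list kept 2 called members without LPS array 1 and 2 without LPS array 2.

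The 150 bases before the start of 4 of these genes, from the RefSeq promoter table (GRCm38.p6), are shown because cell cycle genes commonly carry a CCAAT box there. Each runs 5′ to 3′ on the strand of its gene, with CCAAT or its complement ATTGG in capitals, and the stretch of Birc5 holds neither.
Ccnb1 (chr13:100786487-100786636, minus strand): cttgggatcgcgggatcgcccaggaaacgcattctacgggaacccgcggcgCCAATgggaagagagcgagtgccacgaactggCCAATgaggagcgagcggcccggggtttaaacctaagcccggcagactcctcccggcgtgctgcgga
Plk1 (chr7:122159285-122159434, plus strand): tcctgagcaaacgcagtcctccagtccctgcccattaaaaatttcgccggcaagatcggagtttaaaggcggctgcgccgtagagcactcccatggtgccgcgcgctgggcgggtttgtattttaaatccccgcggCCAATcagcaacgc
Rrm2 (chr12:24708104-24708253, plus strand): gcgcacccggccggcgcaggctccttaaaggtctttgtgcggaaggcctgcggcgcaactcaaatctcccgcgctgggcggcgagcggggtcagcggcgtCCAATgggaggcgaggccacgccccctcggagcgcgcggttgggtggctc
Birc5 (chr11:117849087-117849236, plus strand): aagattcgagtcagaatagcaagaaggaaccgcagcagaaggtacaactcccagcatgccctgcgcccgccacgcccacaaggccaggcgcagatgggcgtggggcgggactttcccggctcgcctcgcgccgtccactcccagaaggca
In the 250 bases before the start, CCAAT or ATTGG was present in 22 of 27 windows of the cell cycle genes that fell (81.5%; 24 of 26 genes had a window) and in 13 of 19 windows of the other measured list members (68.4%), beside 33.8% of all 32851 windows. The CHR element (TTTGAA or TTCAAA) was present in 29.6%, 21.1% and 16% of these windows. A match is a description of the letters and not a binding site.

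Macrophage genes moved in both directions. Of 26 identity genes 3 rose and 7 fell, 38.5% called beside 12.4% of all genes. Among those called were Marco, a scavenger receptor (-1.21 and -0.98), Mrc1, the mannose receptor (-0.57 and -0.48), Apoe (0.89 and 0.75) and the complement gene C1qa (0.98 and 0.47). Of the genes linked to alternative activation, Retnla was at 9.70 and 8.80 in wildtype and 11.42 and 10.87 in knockout RNA and Chil3 at 15.71 and 15.71 in wildtype and 14.37 and 14.42 in knockout RNA. Retnla was higher and Chil3 lower in knockout RNA on both arrays, at 1.89 ± 0.21 and -1.32 ± 0.12. Timd4, a receptor for phosphatidylserine on dying cells, and Havcr2, which encodes the checkpoint receptor TIM-3, both rose. Timd4 was not well above background in wildtype RNA and was at least 2.21-fold higher in the knockout, and Havcr2 was at 1.1 ± 0.068. Of 17 MHC class II genes 4 rose and 1 fell (29.4% called), against 0 calls with the processed signals and the authors' value table. Cd74, the invariant chain, was at 0.53 and 0.65 and H2-Ab1 at 0.54 and 0.47. The calls of H2-Ab1, Cd74, Retnla, Chil3, Mrc1, Marco, Apoe and C1qa were lost when either LPS array was left out (adjusted p 0.0549 to 0.362). H2-Ab1, Cd74, Marco and C1qa were not called with the processed signals (adjusted p 0.115 to 0.282).

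Ribosomal protein genes were called in 1 direction: 8 of 26 rose and 0 fell, 30.8% called beside 12.4% of all genes. Their median was 0.163, and it was -0.0362 with the processed signals and -0.00883 with the authors' value table. The count of calls was 0 with the processed signals, the authors' value table or without LPS array 2, and 1 without LPS array 1, against 23 with median centring. In basal cells 9 rose and 1 fell. Rps14 was at 0.67 and 0.70 and Rplp0 at 0.50 and 0.63. Among glycolysis and hypoxia genes 6 of 28 fell and 3 rose (32.1% called), with the lactate dehydrogenase gene Ldha at -0.69 and -0.65 and Pfkfb3 at 0.36 and 0.88. The list median was -0.175, and 0.167 with median centring. Respiratory chain and citric acid cycle genes had 1 rise and 1 fall among 31, 6.45% called and under the share of all genes. The rise was that of Ppargc1a, a coactivator of mitochondrial genes, at 6.10 and 6.06 in wildtype and 7.43 and 7.28 in knockout RNA, with a wildtype signal not well above background, so that it was at least 2.4-fold higher, and its other probe gave 0.03. The other probes gave -0.66 and -0.51 for Ldha, 0.19 for Pfkfb3 and 0.27 and 0.18 for Rplp0. Ldha and Rplp0 were no longer called without LPS array 1 (adjusted p 0.0712 to 0.113). Ldha, Pfkfb3, Rps14 and Rplp0 were no longer called without LPS array 2 (adjusted p 0.0533 to 0.145). Ldha (-0.08) was not called with median centring (adjusted p = 0.614). Pfkfb3, Rps14 and Rplp0 were not called with the processed signals (adjusted p 0.0668 to 0.173).

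Genes of stress, lysosomes and the cytoskeleton were mixed. Of 28 genes of the NRF2 response, heme and iron, 7 fell and 2 rose, 32.1% called beside 12.4% of all genes. The iron exporter gene Slc40a1 was at -0.51 and -0.56 and the ferritin gene Ftl1 at 0.81 and 0.68 (0.29 by its other probe). Of 26 genes of the unfolded protein and integrated stress responses 7 fell and 2 rose (34.6% called). Phgdh, of serine synthesis, was at -0.70 and -1.02 and Ppp1r15a, which ends the stress response, at 0.52 and 0.64. In the lysosome and autophagy list of 32, 3 fell and 0 rose, 9.38% called and under the share of all genes. The protease gene Ctsd was at -0.91 and -0.75 (-0.32 by its other probe). Of 31 cytoskeleton genes 8 rose and 3 fell (35.5% called). The actin gene Actg1 was at 0.56 and 0.70 (0.09 to 0.40 by its 4 other probes) and the tubulin gene Tubb5 at -0.80 and -0.46. Of 27 integrin and adhesion genes 8 rose and 4 fell (44.4% called), and F11r, a junction protein gene, was at -0.70 and -1.03. In the stefin and cystatin list 4 of 10 fell and 0 rose (40% called), Stfa1, Stfa2 and Stfa2l1 less than Csta2, at -0.56, -0.72 and -0.72. The stefin genes are near-identical copies, so a probe of 1 can pick up RNA of another. The medians of the NRF2, stress, lysosome and cytoskeleton lists were below 0 and turned positive with median centring. F11r, Ftl1, Slc40a1, Ctsd, Ppp1r15a, Tubb5 and Stfa2l1 were no longer called without LPS array 1 (adjusted p 0.0501 to 0.106). F11r, Slc40a1, Phgdh, Ppp1r15a, Actg1, Stfa2l1, Stfa2 and Stfa1 were no longer called without LPS array 2 (adjusted p 0.0755 to 0.142). Stfa2 (-0.48) and Stfa1 (-0.29) were not called with median centring (adjusted p 0.054 to 0.149). F11r, Ftl1, Actg1, Tubb5, Stfa2l1, Stfa2 and Stfa1 were not called with the processed signals (adjusted p 0.0596 to 0.0927).

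By the brightest probes the largest fall was that of Slfn8, a Schlafen family gene, at 14.87 and 14.95 in wildtype and 10.07 and 9.92 in knockout RNA. Its ratio was -4.92 ± 0.16 (SE, n = 2, limma adjusted p = 4.3e-05), but a dimmer probe of the gene gave -0.84 and -0.35. On the basal arrays the brightest probe of Slfn8 was already at -3.44 and -2.76, and the dimmer probe at 0.18 and 0.26. Csta2, of the stefin inhibitors of cysteine proteases, was at 13.74 and 12.83 in wildtype and 9.59 and 9.18 in knockout RNA, a ratio of -3.90 ± 0.16 (SE, n = 2, limma adjusted p = 8.7e-05). On the basal arrays its ratios were -0.27 and 0.31, at mean levels of 7.74 and 12.63, so that the basal cultures themselves differed widely in this gene. Xylt2, which starts glycosaminoglycan chains on proteoglycans, was at 12.79 and 12.19 in wildtype and 10.65 and 10.36 in knockout RNA, a ratio of -1.98 ± 0.095 (SE, n = 2, limma adjusted p = 0.00015), with -0.52 by its other probe. Adora2b, the adenosine A2B receptor, was at 11.19 and 12.20 in wildtype and 9.40 and 10.14 in knockout RNA, a ratio of -1.93 ± 0.091 (SE, n = 2, limma adjusted p = 0.00014), with -1.14 by its other probe. In each of these the knockout values were below both wildtype values. Further large falls were Spink2 (-1.65 ± 0.13), Anxa8 (-1.61 ± 0.18) and the adhesion gene Tns1 (-1.55 ± 0.088), and the other probes of Anxa8 and Tns1 gave -0.51 and -0.52. Hmox1, the heme oxygenase, was at 11.86 and 12.27 in wildtype and 9.43 and 11.92 in knockout RNA, which is low on the first array only, and was not called (adjusted p = 0.0827). The call of Anxa8 was lost when either LPS array was left out (adjusted p 0.0601 to 0.0829).

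Among the largest rises, Acp6, a lysophosphatidic acid phosphatase, had signal in both genotypes, at 9.19 and 8.70 in wildtype and 11.71 and 11.36 in knockout RNA. Its ratio was 2.59 ± 0.073 (SE, n = 2, limma adjusted p = 4.3e-05), against -0.00045 and 0.08 on the basal arrays. Sdc4, a cell surface proteoglycan, was at 14.31 and 13.25 in wildtype and 16.12 and 15.65 in knockout RNA, a ratio of 2.11 ± 0.16 (SE, n = 2, limma adjusted p = 0.00096), and at 2.85 and 2.36 on the basal arrays. Other large rises were dim in wildtype RNA. The desmosome gene Dsc3 was not well above background there and was at least 7.96-fold higher in the knockout, Spo11, a gene of meiotic recombination, by a factor of 5.51 or more, and Cela2a, an elastase gene, by 5.17 or more. Such a bound sets the mean knockout level against the lowest signal that counts as above background, or the probe's own where higher, and is open to dye bias. The basal ratios of Dsc3 were 3.21 and 2.81 and those of Cela2a 2.48 and 2.57, as high as under LPS, whereas Spo11 was at -0.10 and -0.24. The keratin gene Krt6b was at 2.27 ± 0.066 with 0.09 by its other probe, and Krt78, not well above background in wildtype RNA, was at least 5.08-fold higher. Csrp3 was uneven, at 1.76 and 2.99. Among brighter or better known genes, the osteoprotegerin gene Tnfrsf11b was at 1.51 ± 0.087 and the granzyme gene Gzmb at 1.28 ± 0.1.

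**Figure D4:**
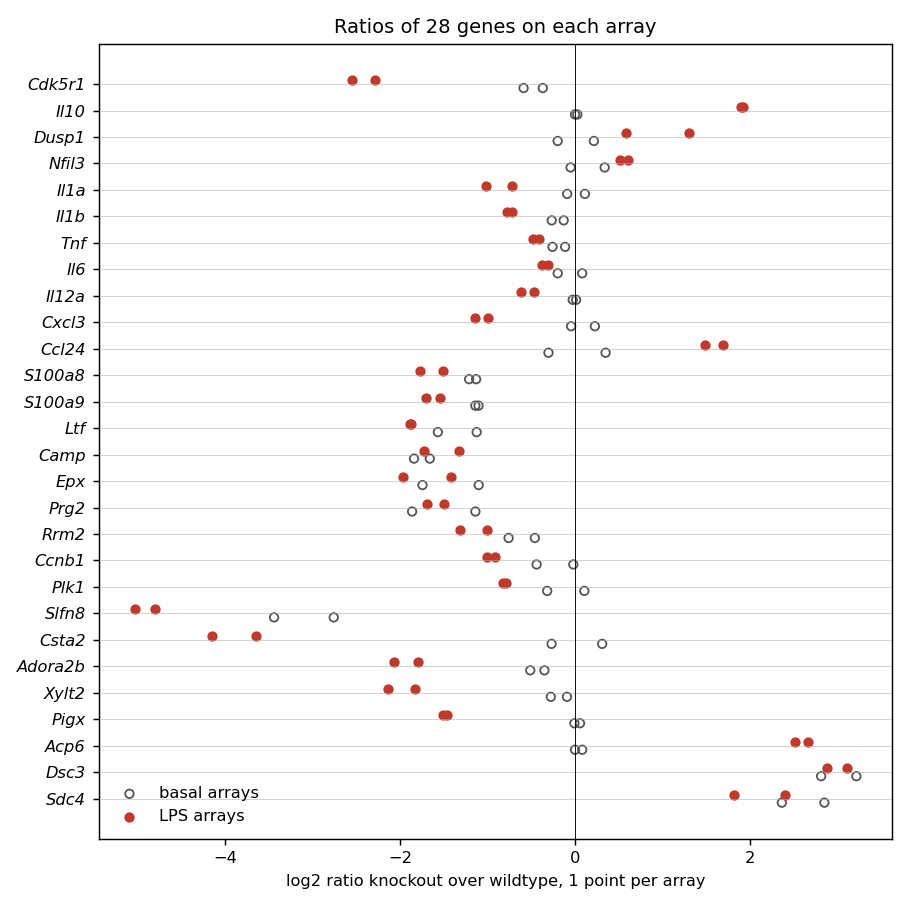
Log2 ratio of knockout over wildtype (x axis) for 28 genes (rows), 1 point per array, with LPS arrays as filled red and basal arrays as open circles. The LPS points of Il10, Csta2, Xylt2, Pigx and Acp6 stand away from their basal points, while those of Dsc3, Camp and Prg2 lie beside them.

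Probes of 1 gene did not always give the same answer, and the genes described here were chosen after their values were seen. With every kept probe as a feature of its own, 3286 of 28632 probes (11.5%) were called, 1904 (6.65%) higher and 1382 (4.83%) lower. Of 653 called genes with at least 2 kept probes, 72.7% had all probes on the same side of 0, and of those not called 58.8%. The largest ratio of the LPS arrays belonged to a second probe of Xaf1, an interferon-induced gene. It was at 9.01 and 9.15 in wildtype and 15.47 and 15.81 in knockout RNA, a ratio of 6.56 ± 0.086 (SE, n = 2, limma adjusted p = 1.2e-06), while the brightest probe was at -0.94 and -0.95. On the basal arrays that second probe was at 4.37 and 4.17. Plagl1, which encodes a zinc finger protein, had 4 kept probes. Of these, 2 were at -4.90 and -4.62 and at -4.80 and -4.70 on the arrays, and the other 2 had means of 0.09 and -0.23. In basal cells the first 2 were between 0.19 and 0.38. For 1810037I17Rik 2 probes gave 2.91 and 2.79, under LPS as in basal cells, and the brightest gave -0.24. A probe of Tmtc1 was at least 8.17-fold higher, from a wildtype signal not well above background, beside 0.09 by the brightest probe. A probe of Adi1 was at -2.04 beside -0.33, and a probe of the inflammasome gene Nlrp1b at 2.22 beside 0.52.

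**Figure D5:**
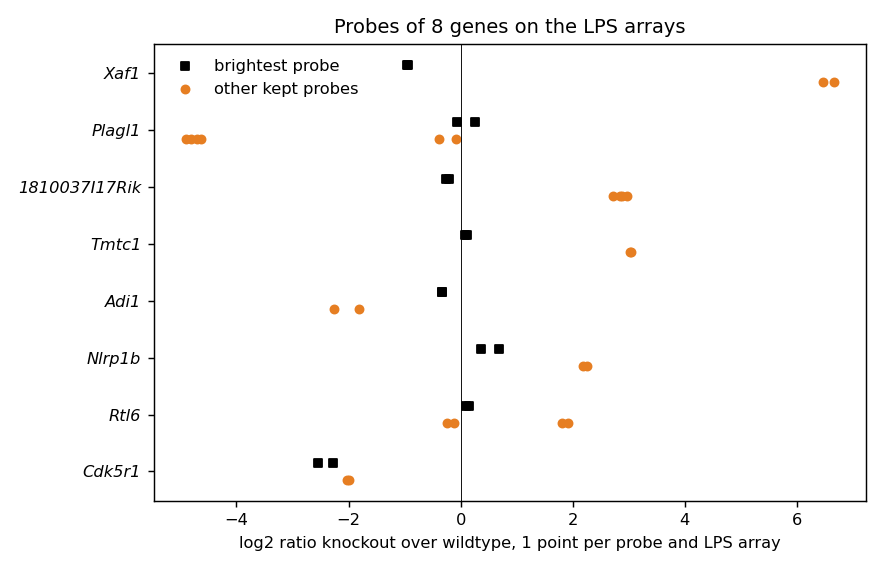
Log2 ratio of knockout over wildtype (x axis) for the kept probes of 8 genes (rows), 1 point per probe and LPS array, with the brightest probe of the gene as black squares and the others as orange circles. The probes of Cdk5r1 lie together, while those of Xaf1 and Plagl1 lie apart by more than 4 log2 units.

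Some genes with large ratios sit on the chromosome of Cdk5r1. In gene order Slfn8 lies 50 positions from it, Wfdc21 96, Epx 209, Xaf1 305, Xylt2 308 and Nlrp1b 334. The chemokine genes Ccl8 and Ccl9 lie 27 and 83 positions away. These genes were picked after their values were seen, and for Xaf1 and Nlrp1b the large ratio is not that of the brightest probe. Csta2, Acp6, Sdc4 and Il10 were not among the measured genes within 400 positions. Of 11 measured genes within 10 positions 2 were called, the motor gene Myo1d, next to it, at -0.54 and -0.54 with -0.12 by its other probe, and Adap2 at 0.38 and 0.29. Within 50 positions 7 of 43 were called (16.3%) within 100 positions 20 of 94 (21.3%), within 200 positions 15.6% and within 400 positions 16.6%, beside 12.4% of all genes. The part of chromosome position in these ratios was not tested. The calls of Adap2 and Myo1d were lost when either LPS array was left out (adjusted p 0.128 to 0.319). Adap2 and Myo1d were not called with the processed signals (adjusted p 0.0616 to 0.142).

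A group of neighbours was lower together. Pigx, which encodes a subunit of the enzyme that adds the first mannose to GPI anchors, was at 11.70 and 11.36 in wildtype and 10.24 and 9.84 in knockout RNA. Its ratio was -1.49 ± 0.068 (SE, n = 2, limma adjusted p = 0.00013), and its other probe gave -1.26. Cep19, a centrosome gene, is the next gene and was at -1.15 and -1.03, and Bex6, 3 positions on, at -1.1 and -1.11. Nrros, which lies between them, was at -0.11 and -0.07 and was not called. The mean basal ratios of Pigx, Cep19 and Bex6 were 0.02, 0.04 and -0.01. Cep19 and Bex6 were picked for their place beside Pigx after their values were seen. Pigx and Cep19 run away from each other, and the stretch between their starts is printed because both genes start beside it (RefSeq promoter table, GRCm38.p6, strand of Cep19, with no part capitalised).
Pigx to Cep19 (chr16:32099728-32099788, plus strand): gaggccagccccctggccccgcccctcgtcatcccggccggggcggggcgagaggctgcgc

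The ratios under LPS were set against those of the basal arrays in the same limma fit. The difference of the ratios was called for 95 genes (0.403%), 66 with a higher and 29 with a lower ratio under LPS, and 2446 had an unadjusted p under 0.05. With the processed signals 6 genes were called, without LPS array 1 there were 7 and without LPS array 2 there were 4. Of the 95, 84 were also called under LPS itself. Csta2, Ccr6 and Acp6 were among the genes with large differences by their brightest probes. Ccr6, a chemokine receptor, had basal ratios of 3.91 and 3.90, while under LPS it was at 0.62 and 0.20 and was not called (adjusted p = 0.0513). In the other direction, Ttc36 was at 1.96 and 2.13 under LPS, above background in wildtype RNA on 1 array only, and Arhgap19, not well above background in wildtype RNA, was at least 4.07-fold higher with -0.09 by its other probe. The basal ratios were 0.06 and -0.01 for Ttc36 and 0.28 and 0.03 for Arhgap19. Of the 2922 genes called under LPS, 821 were called in the same direction on the basal arrays, where 1148 genes (4.87%) were called in all.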

How the data were processed

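The scanner files deposited by the authors hold spot intensity in both channels, with background intensity and quality flags, made in Agilent's Feature Extraction software (its version, per the file headers, was 11.5.1.1; the submitters' processing notes name 9.3.2.1). The files as deposited also give a log10 ratio of the processed signals per spot. The value table the authors deposited is in log2, as knockout over wildtype, on the scale of the processed signals. Median foreground intensities, the ones in the files, took the place of the planned means. They were corrected with normexp (offset 50) and normalised by loess within arrays in limma 3.58.1 (R 4.3.3), and Aquantile set the levels across arrays. The 1377 control spots had weight 0, as did the 255 and 249 outlier spots of the LPS arrays, and 0 probe spots were saturated. Probes were kept with a channel well above background on at least 2 of the 4 arrays. Accessions were matched to symbols through a RefSeq table (GRCm38.p6) for 27508 of 39429 probes. The group means of all 4 arrays were fitted together (2 residual degrees of freedom, 4.54 from the prior), with Benjamini-Hochberg adjustment over 23567 genes and two-sided tests. All arrays lay on 1 slide.

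The members and the 50 gene lists were chosen with earlier results of these data known. Genes were named by rule: a fixed set, the 15 largest rises and falls whose probes share a sign (and up to 5 each way where a probe disagrees), up to 6 called members a list, the 10 largest differences between conditions, and neighbours of Cdk5r1. The script was tested on simulated data: it held the threshold where spreads followed limma's model, and let through more unchanged genes where they did not.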

Additional observations from a re-analysis of the deposited data

Results flagged for a closer look

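The knockout to wildtype ratio under LPS differed from that of the basal arrays, by the difference term of the limma fit (adjusted p under 0.05 over all genes), for 25 genes named by the rule or as neighbours of Pigx. The ratio was lower under LPS by the following log2 differences: Csta2 -3.92, Ccr6 -3.49, Cdk5r1 -1.94, Slfn8 -1.82, Xylt2 -1.80, Pigx -1.51, Adora2b -1.50, Tns1 -1.19, Cxcl3 -1.16, Cep19 -1.13 and Bex6 -1.09. The basal levels of Csta2 differed between the basal arrays, at 7.74 and 12.63.

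The ratio was higher under LPS for Spo11 by 2.63, Acp6 by 2.55, Ttc36 by 2.02, Il10 by 1.90, 2610507I01Rik by 1.89, Arhgap19 by 1.87, Havcr2 by 1.48, Gzmb by 1.22, Oasl1 by 1.05, Ifi44 by 1.04, the cell death gene Bcl2l11 by 0.83, the UDP receptor gene P2ry6 by 0.83, Ppargc1a by 0.81 and Timd4 by 0.79. In wildtype RNA under LPS, Spo11, Arhgap19, Ppargc1a and Timd4 were not well above background on either array and Ttc36 on 1, so their differences rest on signals with only a bound and have no order. For Oasl1, Ifi44 and 2610507I01Rik the basal ratios were the lower ones, with means of -0.71, -1.90 and -2.16.

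Probes that were not the brightest of their gene gave further differences: -4.97 and -5.12 for 2 probes of Plagl1, -1.998 for Adi1, 2.94 for Tmtc1, 2.29 for Xaf1, 1.78 for Rtl6 and 1.22 for Nlrp1b. These genes were picked after their values were seen. With 2 arrays per condition no group was large enough to look for a single outlying array.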

How the results depend on the processing

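Dye, 2 arrays a condition and normalization limit these results: no probe was read with swapped dyes, and signal over background limits the dim rises. The calls also rest on limma's model of the spread between genes. In simulated data whose spreads departed from that model, unchanged genes made up a larger share of the calls than the threshold states, and a variance trend did not remove this.

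Calls of knockout against wildtype were 2922, 1690 higher and 1232 lower. Median centring gave 5491 (4632 higher), the processed signals 1808 (896 higher), and there were 1766 (968 higher, 798 lower) with the authors' values. Leaving out 1 array gave 413 to 3144 calls, 305 to 1790 higher and 108 to 1354 lower. The 221 genes changed 2-fold on both LPS arrays became 359, 1029 and 1026 under these 3 scalings, 308 to 336 with 1 LPS array, and 126 where both channels had to be above background on both. The 95 genes whose ratio differed between conditions became 228, 6 and 8, 28 with both channels above background, and 4 to 197 with an array left out. Calls within 50 positions of Cdk5r1 went from 7 to 14 with median centring and ranged from 1 to 7 with an array left out. A fit with 1 LPS array assumes that it varies like the basal arrays. The processed signals and the authors' table are the same measurements on nearly the same scale. A variance trend over intensity gave 3003 calls and a robust prior 2983, both chosen after seeing the data, as were the crossed block below, the filter on both channels and the fit on every probe.

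Labels share replicate numbers across conditions. With the replicate number as a block, 2160 genes were called and 58 in the difference. Deviations of same-numbered arrays correlated at -0.161 across genes. With the numbers crossed, 4395 genes were called, 1994 of them lower, and 367 in the difference.

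Changes of sign were counted only among the 238 called genes that the naming rule picked, not over all 2922 called genes. With median centring 10 of the 238 changed sign: Tnf (0.0385), Il6 (0.273), Ccl4 (0.1285), Jund (0.0141), Acod1 (0.195), Ccni (0.0205), Nfe2l2 (0.00405), Hsp90b1 (0.0515), Slc3a2 (0.00747) and Rac1 (0.0659). With the mean over a gene's probes 2 of the 238 changed sign, Xaf1 (2.81) and Marchf1 (0.0327). Of the 50 list medians, 28 changed sign with median centring, 7 with the processed signals and 6 with the authors' value table. The cause of these changes was not tested.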
